A study of Mus musculus with 18 samples.

Results

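The mitochondrial protein import translocases are the proteins of the TOM and TIM complexes and their close relatives, encoded in mouse by the Tomm and Timm genes. Members were chosen by symbol alone: every entry of the count table that starts with Timm or Tomm followed by a digit, without the suffix given to pseudogenes. This rule found 26 of the 55291 genes in the table, 15 Timm and 11 Tomm entries. Of these, 25 code for proteins and 1, Tomm6os, is an antisense RNA at the Tomm6 locus.

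Most mitochondrial proteins are made in the cytosol and enter through the TOM complex of the outer membrane. From there the TIM23 complex moves proteins with a presequence into the matrix or inner membrane, while small TIM chaperones carry hydrophobic carrier proteins across the intermembrane space to the TIM22 complex. A fully grown oocyte transcribes little and lives on stored mRNA, much of which is translated, deadenylated or degraded between the germinal vesicle (GV) stage and metaphase II (MII).

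RNA was measured in oocytes of 5-week-old female mice with floxed alleles of Vps34 (gene symbol Pik3c3), which encodes the class III phosphatidylinositol 3-kinase of autophagy and endosomes. The conditional knockouts (cKO, ZcKO in the labels) also carried Zp3-Cre, a transgene driven by a promoter of growing oocytes. The controls, Vps34 f/f without Cre, share the floxed alleles, so the genotypes differ by Cre and by the deletion it makes. The groups were cKO MII, control MII, cKO GV and control GV, with 3 libraries of 5 pooled oocytes each. MII oocytes had been taken 14 h after hCG, given to trigger ovulation, and GV oocytes 46 h after PMSG, given to stimulate follicles. Libraries were made by Smart-seq2, which primes cDNA on poly(A) tails, with ERCC spike-in RNAs added. The amount of an mRNA in the oocyte and the part of it that carries a tail cannot be told apart in such counts, nor can fewer intact cells and less RNA per cell in a pool. The 2-cell embryos of the series are not analysed here.

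Gene counts ranged from 2609783 to 4696626 per library, and levels are given as CPM, the gene's share of its library's gene counts on a common scale. Pik3c3 stood at 5.36, 2.42 and 3.21 CPM in cKO MII oocytes, against 10.6, 21.4 and 17.1 CPM in control MII oocytes. At GV it stood at 1.56, 1.65 and 2.67 CPM in cKO oocytes, against 35.5, 28.8 and 25.8 CPM in control oocytes. The difference passed the test used below at GV (log2 -3.97, adjusted p = 1.5e-04) and not at MII (log2 -2.19, adjusted p = 0.53), although the groups did not overlap at either stage. ERCC reads averaged 34.7% of all counts in cKO MII, 31.5% in control MII, 10.9% in cKO GV and 13.8% in control GV libraries. The 12 oocyte markers (Zp1, Zp2, Zp3, Gdf9, Bmp15 and others) summed to 16128 to 21089 CPM in MII libraries and 35199 to 52250 CPM in GV libraries. The mean of 9 of the 12 was lower at MII in both genotypes and that of 2, Dazl and Oosp1, higher. The 17 cumulus and granulosa markers summed to between 920 and 1663 CPM in MII libraries, against 348 to 599 CPM in GV libraries, most of it Serpine2, and the mean of 9 of the 17 was higher at MII in both genotypes and that of 4 lower. Tnfaip6 was at 16.8 to 194 CPM and Ptx3 at 1.51 to 43.3 CPM in the MII libraries, against 0 in all 6 GV libraries, while Amh was at 0 in all 6 MII libraries. The 6 blood and immune markers summed to between 5.13 and 11 CPM in MII libraries, against 47.9 to 80.5 CPM in GV libraries, most of it C1qb. The mean of 2 of the 6 was lower at MII in both genotypes and that of 1 higher, and Hbb-bs was at 0 in all 12 libraries. The part of these markers in the stage differences below was not tested.

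Relative to the other mRNAs of the oocyte, 12 of the 26 import translocase mRNAs fell between GV and MII in both genotypes and 3 rose in both; on the spike-in scale described below none rose. Another 2 changed in 1 genotype, 3 did not pass the test in either, and 6 were below the filter on low counts. Of all genes tested, 34.0% fell and 29.5% rose in cKO oocytes, and 33.8% fell and 30.1% rose in control oocytes. Summed over all 26 members, the level was 757 to 784 CPM in cKO MII oocytes against 1692 to 1954 CPM in cKO GV oocytes. In controls it was 710 to 783 CPM at MII against 1910 to 1947 CPM at GV. Most of the difference in the sum lay in Timm17a and Timm9. In cKO oocytes they averaged 19.2 and 72.0 CPM at MII against 481 and 463 CPM at GV (n = 3). In control oocytes they averaged 15.1 and 55.6 CPM at MII against 475 and 559 CPM at GV (n = 3). The filter on low counts left 20 members to be tested, of which 3 (Timm10, Timm10b and Tomm40) passed it through their GV libraries only. These 3 are among the 12 that fell, and for them the filter itself favoured that direction. A gene is said to have fallen or risen where edgeR's quasi-likelihood test gave an adjusted p under 0.05 over all genes tested.

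In cKO oocytes 16 of the 20 members passed this threshold between the stages, 13 lower and 3 higher at MII; over all genes 63.5% passed it, 34.0% lower and 29.5% higher. In control oocytes 16 of 20 passed too, again 13 lower and 3 higher, where 63.9% of all genes passed, 33.8% lower and 30.1% higher. The same 15 members passed in both genotypes in the same direction. How many of all genes did so was not counted, so this overlap has no background beside it. A fall of at least 4-fold was seen for 9 of 20 members in cKO oocytes, against 18.3% of all genes, and for 8 of 20 in control oocytes, against 17.9%. The 9 include Timm10, Timm10b and Tomm40, and the 8 include Timm10b and Tomm40, which passed the filter through their GV libraries only. The median log2 change of the tested members from GV to MII was -1.10 in cKO and -1.63 in control oocytes, beside medians of -0.04 and 0.0056 over all genes. Between the stages the libraries did not overlap for 17 of 20 members in cKO oocytes, against 65.3% of all genes, and for 16 of 20 in control oocytes, against 67.3%. Timm10, Timm10b and Tomm40 also enter the medians, the 13 lower members and the members without overlap in each genotype. The filter favoured a fall there too. A rise of at least 2-fold was called for 2 of 20 members in each genotype, against 19.1% of all genes in cKO and 19.5% in control oocytes; on the ERCC scale described next no member rose. These counts describe the members. No test of the list as a whole was made.

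The scale matters for the direction, because gene counts were lower beside the spike-ins at MII. Their ratio to ERCC counts averaged 1.92 in cKO MII against 8.94 in cKO GV libraries, and 2.19 in control MII against 6.68 in control GV libraries. With libraries scaled to their ERCC totals, the median gene moved from GV to MII by -2.49 (log2) in cKO and by -1.87 in control oocytes. On that scale 20 of 21 members tested fell in cKO oocytes, where 88.2% of all genes fell, and 18 of 21 in control oocytes, where 71.4% fell. None rose, in a background of 0.618% risen in cKO and 0.440% in control oocytes. Unless the ERCC scale is named, the changes below are relative to the other mRNAs in the library (TMM scaling).

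**Figure D1:**
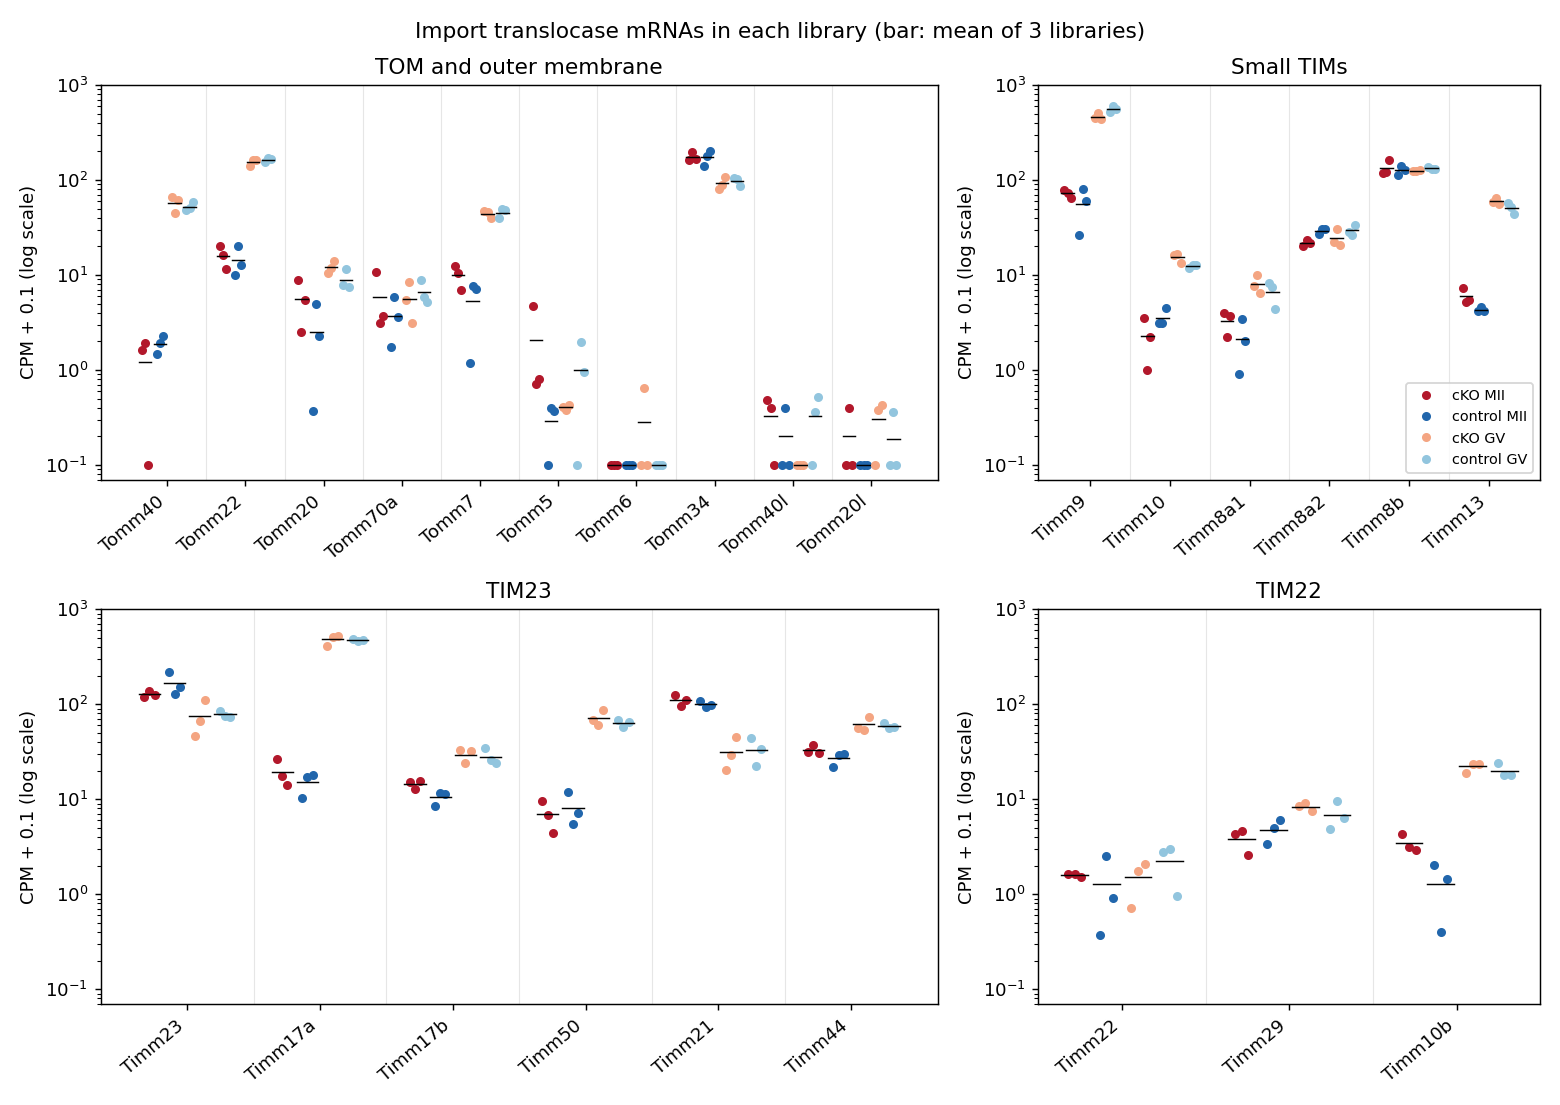
Level of each protein-coding member in each library, as CPM + 0.1 on a log scale, by complex. Points are libraries and bars are means of 3; within each gene the groups run cKO MII, control MII, cKO GV, control GV. Timm17a lies between 10.1 and 26.4 CPM in the 6 MII libraries and between 414 and 523 CPM in the 6 GV libraries, while Timm8b lies between 114 and 160 CPM in all 12.

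The TIM23 complex held the widest contrast among subunits that work together. Timm17a encodes a membrane subunit that forms the core of the complex with Timm23. Its level was 26.4, 17.3 and 13.9 CPM in cKO MII oocytes, against 414, 506 and 523 CPM in cKO GV oocytes. In control oocytes it was 10.1, 17.2 and 17.9 CPM at MII, against 488, 465 and 472 CPM at GV. Every MII library was far below every GV library in both genotypes. The fall was 22.8-fold in cKO oocytes (log2 -4.51 ± 0.24 SE, adjusted p = 5.3e-11) and 28.8-fold in control oocytes (log2 -4.85 ± 0.24 SE, adjusted p = 3.2e-11).

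Timm23, the partner of Timm17a in the membrane core, moved the other way. It stood at 118, 139 and 124 CPM in cKO MII oocytes, against 46.0, 66.7 and 111 CPM in cKO GV oocytes. Control oocytes had 216, 129 and 153 CPM at MII, against 84.9, 75.7 and 74.1 CPM at GV. The groups did not overlap in either genotype, although the highest cKO GV library came close to the lowest cKO MII library. Relative to other mRNAs Timm23 was 1.90-fold higher at MII in cKO oocytes (log2 0.93 ± 0.26 SE, adjusted p = 0.0045). In control oocytes it was 2.37-fold higher (log2 1.25 ± 0.26 SE, adjusted p = 3.9e-04). On the ERCC scale Timm23 fell in cKO oocytes (log2 -1.29, edgeR adjusted p = 0.0025). In control oocytes it missed the threshold there (log2 -0.53, edgeR adjusted p = 0.22). Taken against the median gene of the ERCC scale, it stood 1.19 above it in cKO and 1.33 above it in control oocytes (log2).

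The 3′ ends of these 2 mRNAs are shown because the end of the untranslated region, where the poly(A) signal lies, is where tail length is set in oocytes. Timm17a is on chromosome 1 and Timm23 on chromosome 14, both on the minus strand. The stretches printed, chr1:135295215-135295244 and chr14:32180189-32180218 (GRCm38, GENCODE M21), lie in the last 100 bases of each mRNA. Capitals mark the poly(A) signal AATAAA.
Timm17a: aagtggaaactgAATAAAcctttgctcccc
Timm23: ccctgttttccaAATAAAgggtgaaaacag

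Both mRNAs carry the same signal, followed by 14 bases up to the transcript end in Timm17a and by 39 in Timm23. Their 3′ untranslated regions differ in length, 6705 bases in the Timm17a transcript and 393 in the Timm23 transcript. These 2 are extremes of their classes. The 12 members that fell in both genotypes had a median of 780.5 bases (222 to 6705), and the 3 that rose in both had 863 (393 to 1456). A part of the signal or of this length in the stage changes was not tested.

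Timm17b, an X-linked paralogue of Timm17a, fell much less. Its level was 14.9, 12.7 and 15.3 CPM in cKO MII oocytes, against 32.7, 23.7 and 32.0 CPM in cKO GV oocytes, a 1.86-fold fall (adjusted p = 0.0045). In control oocytes it was 8.45, 11.5 and 11.1 CPM at MII, against 34.2, 25.9 and 23.8 CPM at GV, a 2.44-fold fall (adjusted p = 2.4e-04). Per kilobase of exon, Timm17a therefore made up 29.9% ± 6.9 of the Timm17a and Timm17b sum in cKO MII oocytes, against 84.0% ± 3.5 in cKO GV oocytes (SD, n = 3). In controls its share was 31.6% ± 3.3 at MII, against 84.7% ± 2.2 at GV (SD, n = 3). Per kilobase, Timm17a was the more abundant paralogue in each GV library and the less abundant one in each MII library. Of the Timm17a and Timm23 sum, Timm17a made up 3.34% ± 1.3 in cKO MII against 60.6% ± 8.1 in cKO GV oocytes, and 2.19% ± 1.0 in control MII against 57.9% ± 1.3 in control GV oocytes (SD, n = 3). Such a share within a library does not depend on the scaling between libraries, but it does depend on gene length: by the length of the principal transcript, an alternative added after seeing the data, the share beside Timm23 was 2.41% in cKO MII against 52.4% in cKO GV, and 1.57% in control MII against 49.5% in control GV oocytes.

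**Figure D2:**
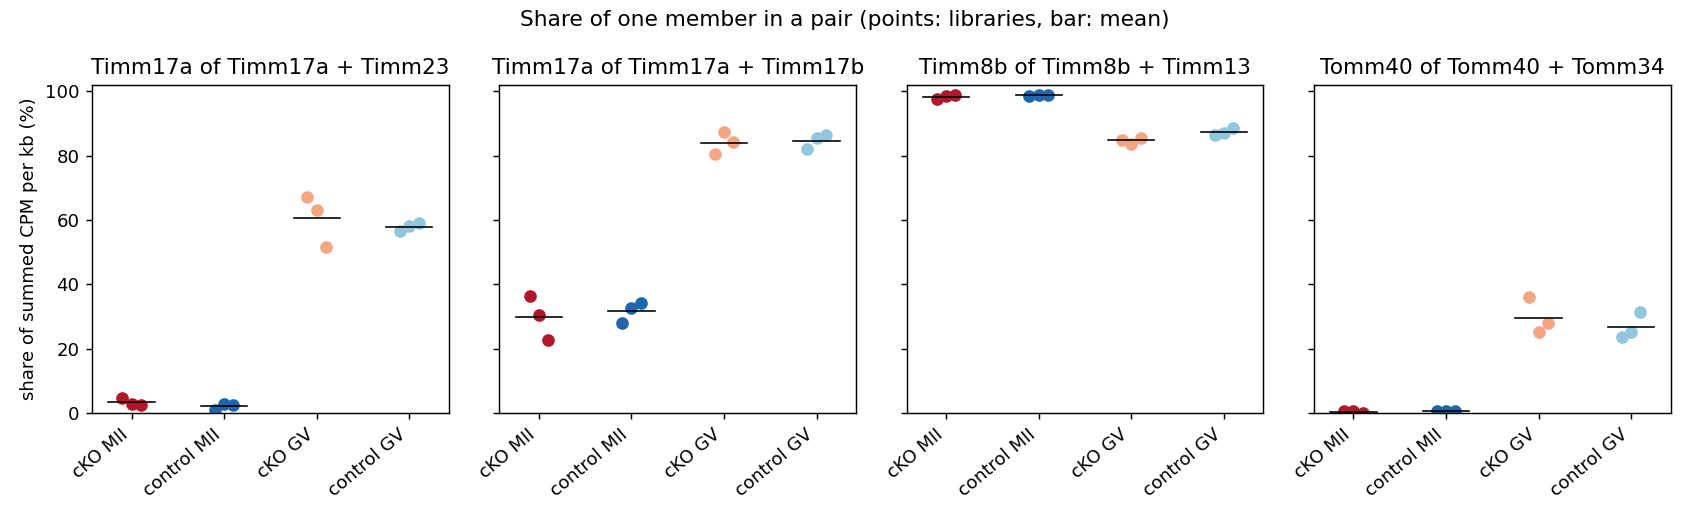
Share of the first-named member in the summed level of a pair, in percent of CPM per kb of exon; points are libraries and bars are means of 3. The share of Timm17a beside Timm23 averages 3.34% in cKO MII, 2.19% in control MII, 60.6% in cKO GV and 57.9% in control GV oocytes, and the share of Timm8b beside Timm13 is above 97% in each MII library.

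Timm50, the receptor of TIM23 that faces the intermembrane space, fell with Timm17a. It stood at 9.58, 6.66 and 4.28 CPM in cKO MII oocytes, against 68.4, 60.1 and 87.3 CPM in cKO GV oocytes, a 9.55-fold fall (adjusted p = 5.5e-08). In control oocytes it stood at 11.7, 5.43 and 7.06 CPM at MII, against 67.6, 58.0 and 64.9 CPM at GV, a 6.99-fold fall (adjusted p = 2.1e-07). Timm44, which tethers the matrix HSP70 motor to the channel, fell by less than either. Its levels were 31.0, 37.2 and 30.3 CPM in cKO MII oocytes against 56.6, 53.7 and 73.6 CPM in cKO GV oocytes, a 1.68-fold fall (adjusted p = 0.0031). Control oocytes had 21.5, 29.3 and 30.1 CPM of Timm44 at MII against 63.9, 55.7 and 57.5 CPM at GV, a 1.99-fold fall (adjusted p = 2.8e-04).

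Timm21, which links TIM23 to TOM and to the respiratory chain, was the member with the strongest rise relative to other mRNAs. It stood at 124, 95.0 and 110 CPM in cKO MII oocytes, against 20.2, 28.9 and 45.3 CPM in cKO GV oocytes. In control oocytes it stood at 107, 93.6 and 98.8 CPM at MII, against 43.6, 22.2 and 33.4 CPM at GV. Every MII library was more than 2 times as high as any GV library of the same genotype. The rise was 3.89-fold in cKO (log2 1.96 ± 0.26 SE, adjusted p = 3.6e-06) and 3.38-fold in control oocytes (log2 1.76 ± 0.26 SE, adjusted p = 1.1e-05), whereas on the ERCC scale it did not pass the threshold, at log2 -0.28 in cKO and 0.04 in control oocytes. Relative to the mean, its GV libraries spread more widely than its MII libraries in each genotype.

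Among the small TIMs, the hexameric chaperones of the intermembrane space, both partners of the major complex fell, while in the second complex Timm13 and Timm8a1 fell and Timm8b and Timm8a2 did not pass the threshold. Timm9 is the partner of Timm10 in the major complex. It had 78.6, 73.6 and 63.8 CPM in cKO MII oocytes, against 448, 505 and 437 CPM in cKO GV oocytes, a 5.85-fold fall (log2 -2.55 ± 0.25 SE, adjusted p = 1.1e-07). Control oocytes had 26.4, 80.0 and 60.3 CPM at MII, against 519, 594 and 562 CPM at GV, a 9.33-fold fall (log2 -3.22 ± 0.26 SE, adjusted p = 6.9e-09). Control MII library 1 was the low one of its group for Timm9, as it also was for Tomm7, Tomm20 and Timm17a. Timm9 overlaps Tomm20l on the opposite strand by 49 bases, 1.14% of its exon bases, and Tomm20l had at most 1 count in any library.

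Timm10, its partner, had 3.45, 0.908 and 2.14 CPM in cKO MII oocytes, against 16.2, 16.5 and 13.3 CPM in cKO GV oocytes, a 6.57-fold fall (adjusted p = 1.1e-05). Control oocytes had 3.0, 3.02 and 4.34 CPM at MII, against 11.8, 12.7 and 12.6 CPM at GV, a 3.23-fold fall (adjusted p = 5.1e-04). The MII levels of Timm10 rest on 9, 3 and 6 counts in cKO and 11, 10 and 16 counts in control libraries. Per kilobase of exon Timm9 made up 86.7% ± 6.5 of the pair in cKO MII against 85.2% ± 1.1 in cKO GV oocytes, and 72.9% ± 10.4 in control MII against 89.6% ± 0.32 in control GV oocytes (SD, n = 3). These shares rest on the length used, and by the principal transcripts they were 96.7% in cKO MII against 96.3% in cKO GV, and 92.2% in control MII against 97.5% in control GV oocytes.

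In the second pair, made of a TIM8 protein and TIM13, the partners parted. Timm13 had 7.28, 5.15 and 5.35 CPM in cKO MII oocytes, against 58.5, 64.5 and 56.0 CPM in cKO GV oocytes, a 9.17-fold fall (adjusted p = 4.0e-09). Control oocytes had 4.09, 4.53 and 4.07 CPM at MII, against 56.8, 52.0 and 43.9 CPM at GV, a 10.8-fold fall (adjusted p = 1.9e-09). Timm8b, the TIM8 gene with the highest level per kilobase, had 117, 122 and 160 CPM in cKO MII oocytes against 125, 125 and 126 CPM in cKO GV oocytes, a log2 difference of 0.23 ± 0.18 SE (adjusted p = 0.27). Control oocytes had 114, 141 and 127 CPM of Timm8b at MII against 138, 132 and 131 CPM at GV, a log2 difference of 0.07 ± 0.18 SE (adjusted p = 0.75). The stages overlapped in both genotypes. The share of Timm8b in the Timm8b and Timm13 sum per kilobase of exon was 98.3% ± 0.54 in cKO MII against 84.8% ± 1.0 in cKO GV, and 98.8% ± 0.08 in control MII against 87.4% ± 1.1 in control GV oocytes (SD, n = 3). On the ERCC scale Timm8b was lower at MII, by log2 -2.16 in cKO and -1.66 in control oocytes, close to the median gene. Of the exon bases of Timm8b, 15.6% lie opposite exons of Nkapd1, so reads there cannot be assigned with certainty without the strand.

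Timm8b holds in the last 100 bases of its mRNA a cytoplasmic polyadenylation element (CPE), the motif through which CPEB proteins control tail length during oocyte maturation. Timm9 holds none there. The stretches shown are chr9:50605243-50605272 on the plus strand for Timm8b and chr12:71123173-71123202 on the minus strand for Timm9 (GRCm38, GENCODE M21). Capitals mark the CPE in Timm8b and the poly(A) signal in Timm9.
Timm8b: tcaaaagtgaaaTTTTATttatgggaattc
Timm9: ttactaaaagtaAATAAAtgagtatcattg

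The other TIM8 genes are Timm8a2 and Timm8a1. Timm8a2 had 19.9, 23.0 and 21.4 CPM in cKO MII oocytes against 22.1, 30.3 and 20.3 CPM in cKO GV oocytes, and 26.7, 30.2 and 30.7 CPM in control MII against 28.4, 26.4 and 33.2 CPM in control GV oocytes. Its log2 stage differences were -0.04 ± 0.23 in cKO and 0.13 ± 0.22 SE in control oocytes, neither past the threshold. Timm8a1, the X-linked counterpart of the human deafness-dystonia gene TIMM8A, fell 2.28-fold in cKO (adjusted p = 0.028) and 2.97-fold in control oocytes (adjusted p = 0.0072). It had 3.83, 2.12 and 3.56 CPM in cKO MII against 7.47, 9.92 and 6.33 CPM in cKO GV oocytes, and 0.818, 3.32 and 1.90 CPM in control MII against 8.12, 7.39 and 4.26 CPM in control GV oocytes. The fall in cKO oocytes missed the threshold without cKO GV library 2 (adjusted p = 0.11) and without cKO MII library 2 (adjusted p = 0.12).

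The TIM22 complex inserts carrier proteins into the inner membrane. Timm22, its channel subunit, was below the filter, with 1.53, 1.51 and 1.43 CPM in cKO MII, 0.273, 2.41 and 0.815 CPM in control MII, 0.622, 1.65 and 2.00 CPM in cKO GV and 2.71, 2.90 and 0.852 CPM in control GV oocytes. Timm10b, a small TIM attached to TIM22, had 4.21, 3.03 and 2.85 CPM in cKO MII oocytes, against 19.0, 23.4 and 23.7 CPM in cKO GV oocytes, a 5.92-fold fall (adjusted p = 7.1e-06). Control oocytes had 1.91, 0.302 and 1.36 CPM of Timm10b at MII, against 24.0, 17.9 and 17.9 CPM at GV, a 14.3-fold fall (adjusted p = 2.2e-07). The MII levels of Timm10b rest on 11, 10 and 8 counts in cKO and 7, 1 and 5 counts in control libraries. Its exons share 22.1% of their bases with neighbouring genes, so its counts are uncertain.

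Timm29, a subunit of TIM22 in animals, had 4.21, 4.54 and 2.50 CPM in cKO MII against 8.40, 9.09 and 7.33 CPM in cKO GV oocytes, a 2.00-fold fall (adjusted p = 0.036). In control oocytes, at 3.27, 4.83 and 5.97 CPM at MII against 4.73, 9.50 and 6.17 CPM at GV, the stages overlapped (adjusted p = 0.34). The call in cKO oocytes did not hold without cKO GV library 1 (adjusted p = 0.074), cKO GV library 2 (0.094), cKO MII library 1 (0.057) or cKO MII library 3 (0.12).

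In the TOM complex the channel and the central receptor both fell. Tomm40, the pore of the outer membrane, had 1.53, 1.82 and 0 CPM in cKO MII oocytes, against 66.6, 44.4 and 61.7 CPM in cKO GV oocytes. Control oocytes had 1.36, 1.81 and 2.17 CPM at MII, against 48.0, 50.7 and 58.1 CPM at GV. At MII these levels rest on 4, 6 and 0 counts in cKO and 5, 6 and 8 counts in control libraries, and the library with 0 counts allows up to 1.07 CPM (3 counts, counting error only). The fitted falls were 44.5-fold in cKO (log2 -5.48 ± 0.42 SE, adjusted p = 3.6e-09) and 26.3-fold in control oocytes (log2 -4.71 ± 0.38 SE, adjusted p = 6.1e-09).

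Tomm22, the central receptor, had the highest level per kilobase of the core TOM genes at GV. It had 20.3, 16.0 and 11.4 CPM in cKO MII oocytes, against 139, 162 and 163 CPM in cKO GV oocytes, an 8.84-fold fall (adjusted p = 3.8e-09). Control oocytes had 9.81, 20.2 and 12.5 CPM at MII, against 155, 169 and 168 CPM at GV, a 10.6-fold fall (adjusted p = 1.2e-09). Tomm7, a small subunit of the complex that in human cells is needed to hold PINK1 at the outer membrane, followed. It had 12.3, 10.3 and 6.77 CPM in cKO MII against 47.0, 45.5 and 39.7 CPM in cKO GV oocytes, a 4.11-fold fall (adjusted p = 7.0e-05). Control oocytes had 1.09, 7.55 and 7.06 CPM of Tomm7 at MII against 39.2, 48.8 and 47.9 CPM at GV, an 8.03-fold fall (adjusted p = 1.7e-06).

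The peripheral receptors had low counts at both stages. Tomm20, which recognises presequences, had 8.81, 2.42 and 5.35 CPM in cKO MII against 10.3, 11.8 and 14.0 CPM in cKO GV oocytes, a 2.00-fold difference (log2 SE 0.50) that missed the threshold (adjusted p = 0.088). In control oocytes it had 0.273, 4.83 and 2.17 CPM at MII against 7.78, 11.3 and 7.45 CPM at GV, a 3.42-fold fall (adjusted p = 0.0081). Without cKO MII library 1, the highest of its group, the difference in cKO oocytes also passed (log2 -1.47, adjusted p = 0.032). That library also had the highest sum of cumulus and granulosa markers, 1663 CPM, and a part of these in its Tomm20 level was not tested. Tomm70a, the receptor for carrier proteins and a dock for cytosolic chaperones, had 10.7, 3.03 and 3.56 CPM in cKO MII against 5.29, 8.27 and 3.0 CPM in cKO GV oocytes, and 1.64, 5.74 and 3.53 CPM in control MII against 8.79, 5.80 and 5.11 CPM in control GV oocytes. Its stages overlapped in both genotypes.

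Tomm34, a cytosolic cochaperone that binds HSP70 and HSP90 and bears the family symbol without being a core subunit of the pore, rose relative to other mRNAs. It had 161, 195 and 168 CPM in cKO MII oocytes, against 79.9, 88.7 and 108 CPM in cKO GV oocytes, and 141, 178 and 201 CPM in control MII against 104, 101 and 85.4 CPM in control GV oocytes. Each MII library was above each GV library. The rise was 2.10-fold in cKO (log2 1.07 ± 0.18 SE, adjusted p = 4.8e-05) and 1.96-fold in control oocytes (log2 0.97 ± 0.18 SE, adjusted p = 1.2e-04). On the ERCC scale Tomm34 fell in cKO oocytes (log2 -1.24, edgeR adjusted p = 0.0035). In control oocytes it missed the threshold there (log2 -0.72, edgeR adjusted p = 0.098). Per kilobase of exon, Tomm40 made up 0.421% ± 0.36 of the Tomm40 and Tomm34 sum in cKO MII against 29.7% ± 5.6 in cKO GV oocytes, and 0.684% ± 0.04 in control MII against 26.8% ± 4.1 in control GV oocytes (SD, n = 3). By the principal transcripts these shares were higher, at 0.905% in cKO MII against 47.5% in cKO GV, and 1.47% in control MII against 44.1% in control GV oocytes.

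Tomm34 carries the same CPE as Timm8b in its last 100 bases. The stretch is chr2:164053570-164053599 on the minus strand (GRCm38, GENCODE M21), with the CPE in capitals. Timm29, which fell in cKO oocytes by the narrow margin given above, carries the longer form TTTTAAT close to its poly(A) signal ATTAAA, both in capitals, at chr9:21595904-21595933 on the plus strand.
Tomm34: taattgaactgaTTTTATtgaagtgtgtgt
Timm29: aatgTTTTAATtagtgtgtATTAAAggatt

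A CPE, counted as TTTTAT or TTTTAAT on the sense strand of the last 100 bases of the principal transcript, was present in 6 of the 25 protein-coding members and in 17.9% of 19374 genes searched alike. Of the 12 members that fell in both genotypes none held one, of the 3 that rose in both 1 did (Tomm34), and of the 3 called in neither genotype 2 did (Timm8b and Tomm70a). The other holders were Timm29, Tomm5 and Tomm6. Timm21 and Timm23, which rose relative to other mRNAs, held none in this window. A Pumilio motif, TGTANATA, occurred in 3 of 25 members (Timm10, Timm44 and Timm8a2), against 4.34% of the genes. The poly(A) signal AATAAA was found in 16 of 25, against 64.8%. The search was chosen after the stage changes had been seen and is a description of letters, with no test.

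The remaining members were near the limit of detection. Tomm5, a small TOM subunit, had 12 counts in cKO MII library 1 and at most 7 in any other library. Tomm6 had 2 counts in 1 cKO GV library and 0 in the other 11, but 84.2% of its exon bases are shared with Gm21981, Tomm6os and Usp49, and reads that could belong to several genes may not have been counted. Tomm20l and Tomm40l, paralogues of Tomm20 and Tomm40, had at most 1 and at most 2 counts in any library. Tomm6os had 0 counts in the 12 libraries together, which allows up to 0.0738 CPM by counting error only. Other genes share 51.3% of the exon bases of Tomm6os and 64.3% of those of Tomm40l, so reads of these 2 may also not have been counted.

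Per kilobase of the principal transcript, the order of the members changed with the stage. In cKO MII oocytes Timm8b led with 257 ± 46 CPM per kb, followed by Timm23 with 108 ± 9.2, Timm9 with 90.6 ± 9.4 and Tomm34 with 75.8 ± 7.7 (SD, n = 3). In cKO GV oocytes Timm9 led with 583 ± 46, followed by Timm8b with 242 ± 1.2, Tomm22 with 98.6 ± 8.5 and Timm17a with 66.1 ± 8.1 CPM per kb. Control MII oocytes had Timm8b at 246 ± 26, Timm23 at 141 ± 38, Tomm34 at 75.2 ± 13 and Timm9 at 70.0 ± 34 CPM per kb, so that Tomm34 and Timm9 lay within each other's spread. Control GV oocytes had Timm9 at 704 ± 47, Timm8b at 258 ± 8.1, Tomm22 at 105 ± 4.9 and Timm23 at 66.7 ± 5.0 CPM per kb, with Timm17a next at 65.2 ± 1.6, not apart from Timm23. The lead of Timm9 at GV depends on the length used, since its transcript has 794 bases and the union of its exons 4282, and by the union of exons Timm8b comes first.

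**Figure D3:**
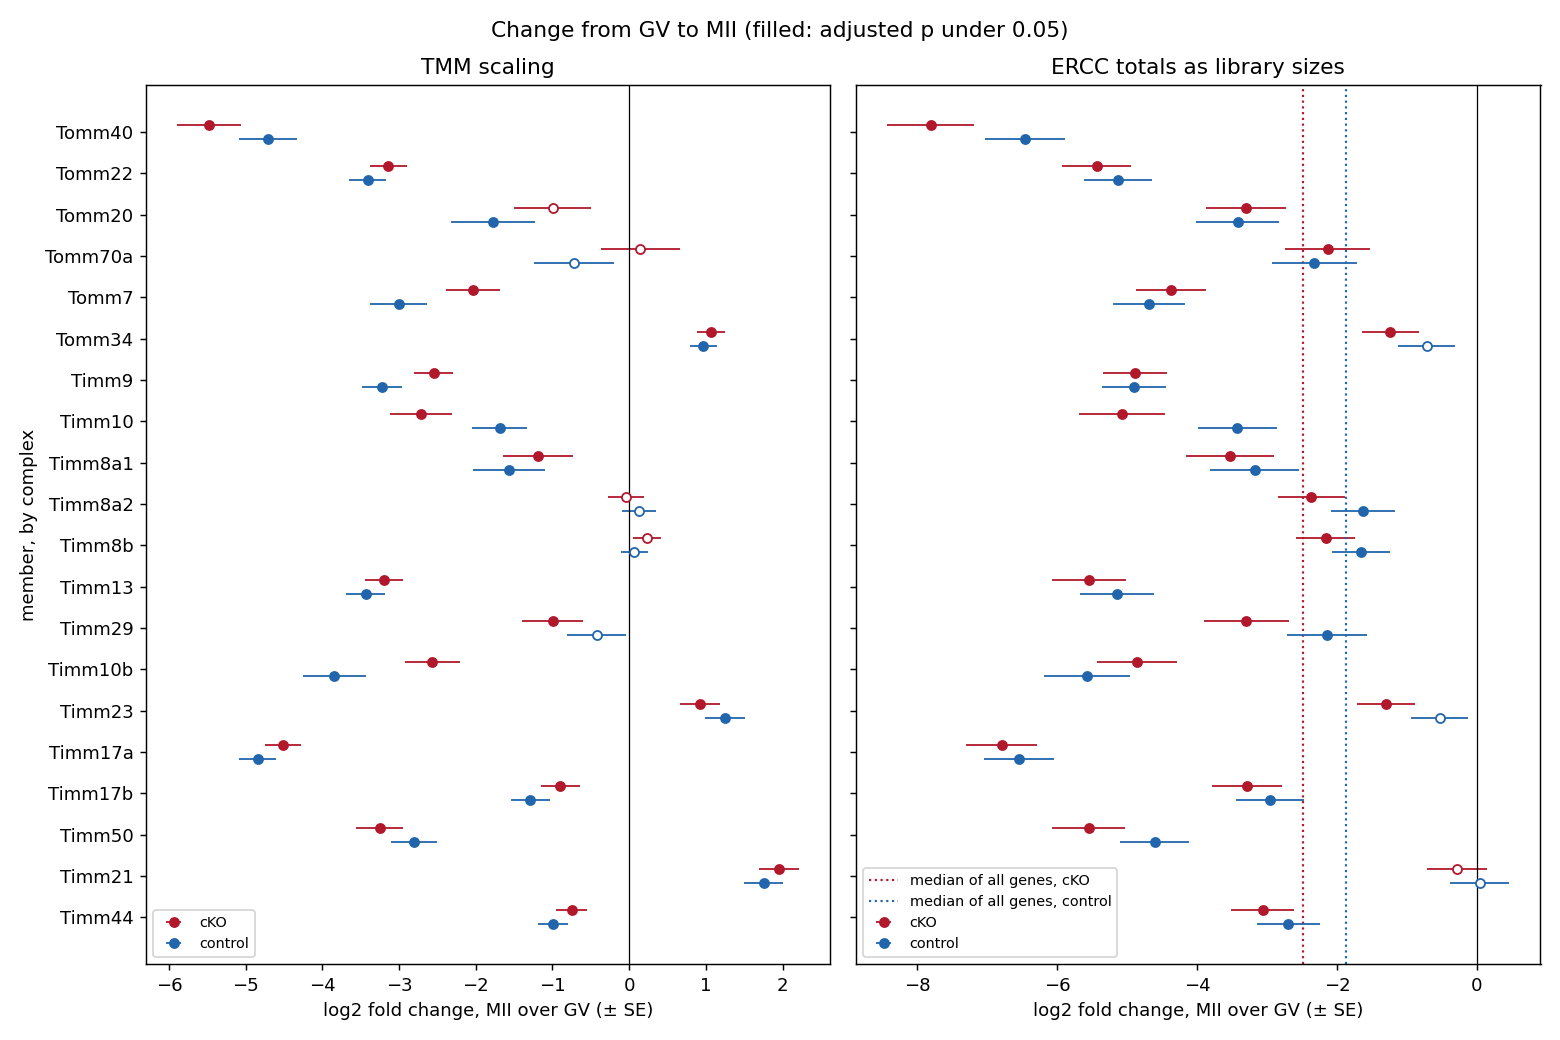
Change from GV to MII of each tested member as log2 fold change (MII over GV) ± SE, in cKO (red) and control (blue) oocytes, under TMM scaling (left) and with ERCC totals as library sizes (right); filled points have an adjusted p under 0.05 and dotted lines mark the median of all genes. Timm17a and Tomm40 lie below -4 on the left in both genotypes, and Timm21, Timm23 and Tomm34, which are above 0 on the left, lie between -1.29 and 0.04 on the right.

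Between genotypes no member passed the threshold at either stage. At MII, where 17 members passed the filter, 0 were called by edgeR's quasi-likelihood test, in a background of 0% of all genes, and DESeq2 called 0 as well. The log2 differences (cKO over control) ran from -0.48 to 1.16 with a median of 0.26, beside 0.02 over all genes. Under TMM scaling 12 of 17 were positive, but 8 of 17 on the ERCC scale. The members tested were not quite the same, as Timm10 (log2 -0.925) stood on the ERCC scale in place of Timm8a1 (log2 0.63 under TMM scaling). Before adjustment 1 of the 17 members passed 0.05 by edgeR, against 9.01% of all genes. It was Timm8a2 (log2 -0.48 ± 0.21 SE, edgeR adjusted p = 0.55). Its cKO MII libraries, 19.9 to 23.0 CPM, lay below its control MII libraries, 26.7 to 30.7 CPM. In 4 of 17 members the groups did not overlap, against 15.8% of all genes: Timm8a2 was the lower one in cKO, and Timm44, Timm17b and Timm13 were the higher ones. The highest value, 1.16 for Tomm20, had an SE of 0.72 and rests on levels of 8.81, 2.42 and 5.35 CPM in cKO MII against 0.273, 4.83 and 2.17 CPM in control MII oocytes, which overlap. It was 0.66 without control MII library 1, 0.69 without cKO MII library 1 and 2.07 without control MII library 2, with no adjusted p under 0.05.

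At GV, 20 members were tested and 0 were called by either tool, where edgeR called 0.0825% of all genes. An unadjusted edgeR p under 0.05 was reached by 0 of the 20, against 2.2% of all genes. Log2 differences ran from -0.32 (Timm9) to 0.38 (Tomm20), with SE of 0.16 to 0.41 and a median of -0.01, beside 0.01 over all genes. Timm17a differed by -0.03 ± 0.17 and Timm23 by -0.13 ± 0.25 (SE). Groups did not overlap in 3 of 20 members, against 7.26% of all genes. Timm9 was at 448, 505 and 437 CPM in cKO GV against 519, 594 and 562 CPM in control GV oocytes, Timm8b was also lower in cKO and Timm10 higher, but on the ERCC scale Timm9 and Timm8b had positive differences, of log2 0.13 and 0.34, as did each of the 20 members tested. On that scale the median gene differed between genotypes by log2 0.46 at GV and by -0.15 at MII, and no member passed the threshold at either stage. With groups of 3, a miss of the threshold does not show that the levels were equal.

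**Figure D4:**
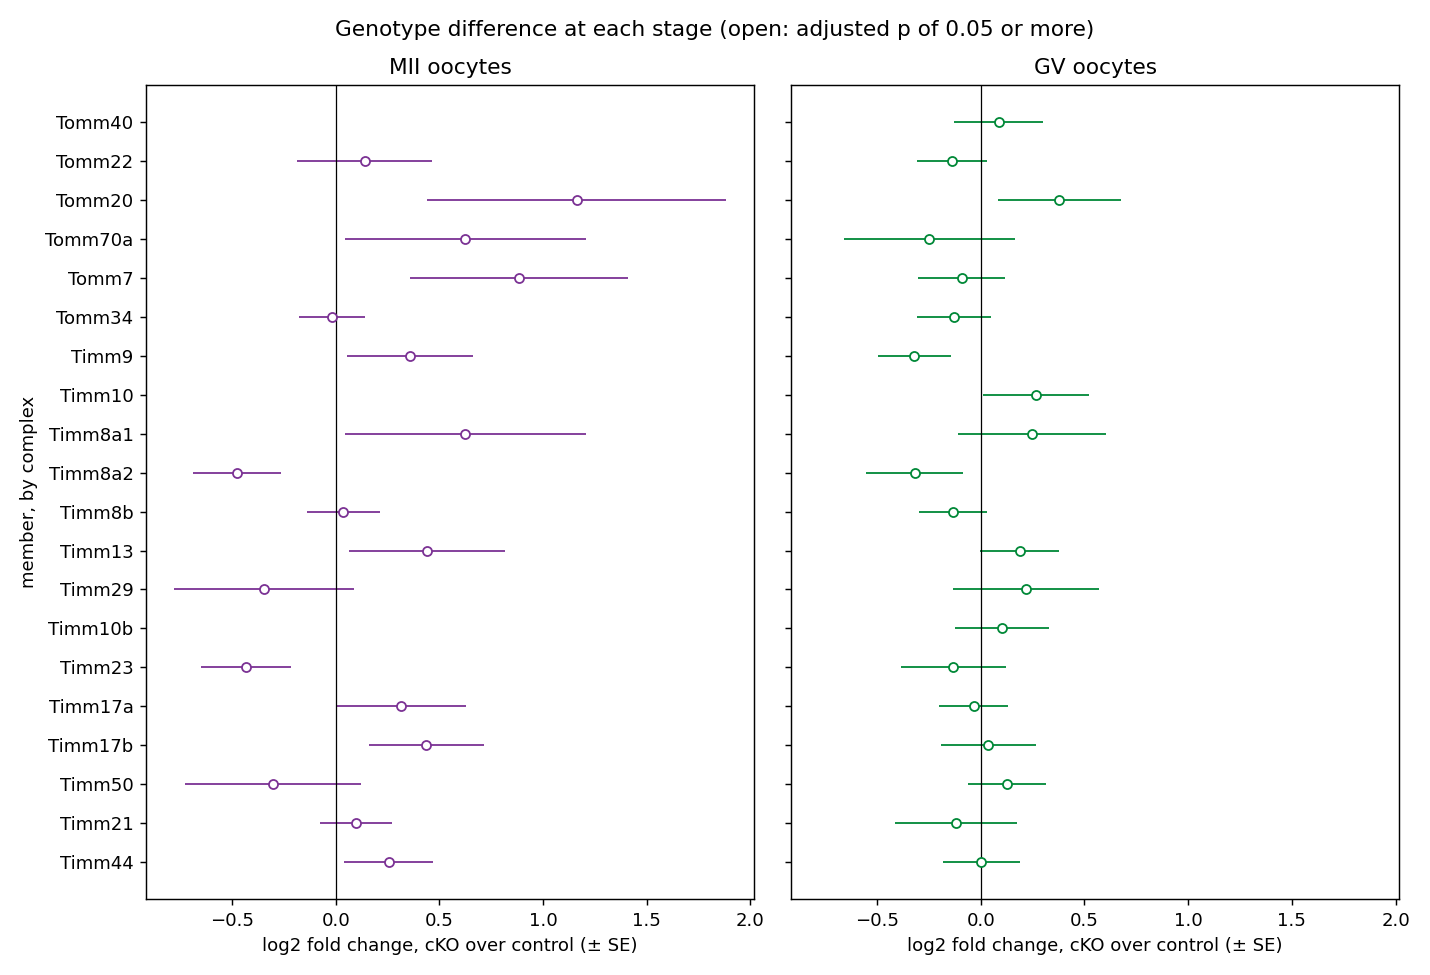
Genotype difference of each tested member as log2 fold change (cKO over control) ± SE, at MII (left, 17 members) and GV (right, 20 members); open points did not reach an adjusted p under 0.05. The points at GV lie between -0.32 and 0.38, and those at MII between -0.48 and 1.16.

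The change from GV to MII itself was also compared between genotypes. The interaction was called for 0 of 20 members by edgeR, where 0.00862% of all genes were called, and for 0 by DESeq2. Values ran from -1.03 for Timm10 (± 0.55 SE, edgeR adjusted p = 0.88) to 1.28 for Timm10b (± 0.57 SE, edgeR unadjusted p = 0.037, adjusted p = 0.88). Both of these values rest on the low MII counts given above. Timm10b was the 1 member with an unadjusted p under 0.05 by edgeR, against 5.24% of all genes. By DESeq2 there were 3, against 4.9% of all genes. The calls of Tomm20 in control oocytes alone and of Timm29 in cKO oocytes alone are therefore not shown to differ between genotypes, with interaction values of 0.77 ± 0.74 and -0.58 ± 0.55 (SE, adjusted p = 0.90 for both).

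Of 35 genes tested that work beside the translocases, 27 (77.1%) passed between the stages in cKO oocytes and 24 (68.6%) in control oocytes, beside 63.5% and 63.9% of all genes. Between genotypes 0 were called at either stage or in the interaction. Each of those said below to have risen had a negative change on the ERCC scale. In the list of the matrix motor and presequence processing, 12 of 13 genes were tested; 8 fell and 2 rose in cKO oocytes, and 7 fell and 2 rose in control oocytes. Pam16, which controls the HSP70 motor at the channel, averaged 33.6 ± 1.5 CPM in cKO MII against 214 ± 33 CPM in cKO GV oocytes, and 34.6 ± 1.7 CPM in control MII against 206 ± 35 CPM in control GV oocytes (SD, n = 3). Dnajc15, a J protein of the motor, averaged 11.5 ± 4.7 CPM in cKO MII against 52.7 ± 8.6 CPM in cKO GV oocytes, and 4.70 ± 1.5 CPM in control MII against 59.8 ± 5.2 CPM in control GV oocytes (SD, n = 3). Pmpcb, a subunit of the peptidase that removes presequences, and Grpel1, the exchange factor of the motor, fell as well, by log2 -2.16 and -1.58 in cKO and -2.40 and -1.66 in control oocytes. Hspa9, the motor HSP70 itself, did not pass in either genotype, at log2 0.09 ± 0.17 in cKO and 0.26 ± 0.17 in control oocytes (SE).

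Of the list of the MIA pathway, SAM complex and membrane insertion, 8 of 10 genes were tested, with 6 falling and 1 rising in each genotype. Gfer, the oxidase that recharges the import receptor of the small TIMs, averaged 12.8 ± 3.8 CPM in cKO MII against 149 ± 40 CPM in cKO GV oocytes, and 12.1 ± 3.4 CPM in control MII against 121 ± 11 CPM in control GV oocytes (SD, n = 3). Mtx1 and Mtx2, metaxins of the SAM complex, fell by log2 -4.95 and -1.94 in cKO and -4.05 and -2.38 in control oocytes, and Oxa1l, an insertase of the inner membrane, by -2.81 and -2.44. Agk, a lipid kinase that is also a TIM22 subunit, was the one that rose under TMM scaling, averaging 65.8 ± 11 CPM in cKO MII against 41.7 ± 13 CPM in cKO GV, and 93.2 ± 17 CPM in control MII against 41.7 ± 7.1 CPM in control GV oocytes (SD, n = 3), though on the ERCC scale it changed by log2 -1.42 and -0.42. Of 11 genes for matrix folding and proteases 5 fell and 2 rose in each genotype, a share near that of all genes. Lonp1 and Clpp, matrix proteases, and Hspe1, the HSP10 cochaperonin, were among those that fell in both. Of 4 genes of the PINK1 list tested, 3 fell in cKO (Parl, Pgam5 and Pink1) and 1 in control oocytes (Parl). Pink1 averaged 0.906 CPM in cKO MII and 0.747 CPM in control MII oocytes. It changed by log2 -1.86 in cKO (edgeR adjusted p = 0.045) and -1.72 in control oocytes (adjusted p = 0.065). Pgam5 changed by log2 -0.75 in cKO and -0.15 in control oocytes. The interaction was called for neither gene (edgeR adjusted p = 0.99 for Pink1 and 0.88 for Pgam5). Parl, the inner-membrane protease that cleaves imported PINK1, averaged 135 ± 10.1 CPM in cKO MII against 746 ± 178 CPM in cKO GV oocytes, and 159 ± 8.9 CPM in control MII against 678 ± 85 CPM in control GV oocytes (SD, n = 3).

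Promoters were compared between members that fell and members that did not. RefSeq windows of 300 bases (250 before and 50 after the start, GRCm38.p6) matched 23 of 26 members. The ETS-type motif CCGGAAG, searched on both strands, was found in 9 of the 23 (39.1%) and in 9.93% of 27025 genes. A gene was counted where any of its windows held the motif. Its holders were on both sides of the stage change: 3 of the 11 matched members that fell in both genotypes (Timm10, Timm10b and Tomm22), both of the matched members that rose (Timm23 and Tomm34), and all 3 called in neither genotype (Timm8a2, Timm8b and Tomm70a), besides Timm29. The TATA motif TATAAA was in 2 of 23, against 15.7% of genes, and the E-box CACGTG in 6 of 23, against 8.09%. The NRF1-type palindrome, with any base allowed at 1 central position, was in 2 of 23, against 5.19%. These searches too were chosen with the values known and carry no test.

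The upstream 250 bases of one member that fell and one that rose are given with the ETS-type letters in capitals: Tomm22 at chr15:79670618-79670867 on the plus strand, where 2 matches on opposite strands overlap, and Timm23 at chr14:32201892-32202141 on the minus strand (RefSeq, GRCm38.p6), with 1 match read on the opposite strand.
Tomm22: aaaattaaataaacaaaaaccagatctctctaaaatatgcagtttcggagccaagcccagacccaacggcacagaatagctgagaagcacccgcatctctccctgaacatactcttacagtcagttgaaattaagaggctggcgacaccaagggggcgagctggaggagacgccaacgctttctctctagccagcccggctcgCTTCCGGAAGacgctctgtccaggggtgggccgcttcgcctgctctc
Timm23: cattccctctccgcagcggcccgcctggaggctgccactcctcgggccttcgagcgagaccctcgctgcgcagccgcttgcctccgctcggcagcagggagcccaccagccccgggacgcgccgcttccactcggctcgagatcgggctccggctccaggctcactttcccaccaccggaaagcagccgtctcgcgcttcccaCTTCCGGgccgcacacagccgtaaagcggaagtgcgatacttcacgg

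Both genes hold the motif close to their start, with the first capital 47 bases before it in each. They moved in opposite directions relative to other mRNAs from GV to MII. Tomm22 was lower on both scales. Timm23 was higher under TMM scaling, while on the ERCC scale it fell in cKO oocytes and missed the threshold in control oocytes.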

How the data were processed

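The deposited values are raw counts: whole numbers of reads for each gene symbol, one column for each library, as the authors' counting left them. Per the submitters' processing notes, the tools were fastp, HISAT2 and featureCounts and the mouse build was mm10, with no versions. Annotation release, strand setting and handling of multi-mapping reads: not given in the sources used here. Columns were matched by stage, letter and replicate number; C was read as control and T as the Cre arm, which the sample titles do not spell out, so each genotype direction rests on this reading. Another 6 columns match no label and were not used.

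edgeR 4.0.16 (R 4.3.3) was run on the counts of 55291 genes (TMM, filterByExpr, robust quasi-likelihood fit), with Benjamini-Hochberg adjustment over all genes tested and a threshold of 0.05. Genotypes were compared within each stage in 6 libraries, and stages and the interaction in 1 fit of 12 libraries. DESeq2 1.42.0, size factors, ERCC totals as library sizes, no filter, a replicate block, fits on other sets of libraries and leaving out each library were tried as alternatives. Library totals of 2609783 to 4696626 counts set the precision. Without molecular identifiers in Smart-seq2, limits from a count of 0 (3 counts) cover counting error only. The series calls its replicates biological; if libraries shared animals, p-values would measure only the spread between these samples.

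Gene positions, exon lengths and 3′ ends come from GENCODE M21 (GRCm38), in which the 26 members matched, and promoters from RefSeq (GRCm38.p6). Members named with each library's value are those called in any comparison and the most abundant of each complex; of each partner list at most 4 called genes per comparison are named, by lowest adjusted p, plus Hspa9 and Agk, chosen after their values were seen. The members and lists were chosen with earlier results of these data known.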

Additional observations from a re-analysis of the deposited data

How the results depend on the processing

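The counts of members called kept their size under each alternative: 0 between genotypes at both stages and in the interaction, 14 to 20 for MII against GV in cKO and 16 to 18 in control oocytes. Leaving out each library in turn gave 14 to 16 in cKO and 16 in control oocytes, and 0 for the other 3 comparisons. Replicate numbers did not pair the samples (correlations of same-numbered deviations -0.23 to 0.21), and the fit with the replicate block called 0, 0, 16, 16 and 0 members. ERCC totals moved the split from 3 higher and 13 lower to 0 and 20 in cKO and to 0 and 18 in control oocytes. The sign of the log2 change reversed on that scale in cKO oocytes for Timm21 (-0.28), Timm23 (-1.29), Timm8b (-2.16), Tomm34 (-1.24) and Tomm70a (-2.13). In control oocytes it reversed for Timm23 (-0.53), Timm8a2 (-1.63), Timm8b (-1.66) and Tomm34 (-0.72). Timm8b, Tomm70a and Timm8a2 had not been called under TMM scaling. Timm21 in cKO oocytes and Timm23 and Tomm34 in control oocytes were not called on the ERCC scale. Timm23 and Tomm34 in cKO oocytes were called on both scales, in opposite directions. The shift of the median of all genes, -2.49 and -1.87, is of the scale itself. With no filter on low counts Tomm20 in cKO oocytes passed (adjusted p = 0.039) and Timm29 did not (0.068). The main filter removed Timm22, Tomm5, Tomm6, Tomm6os, Tomm20l and Tomm40l; without it 25 members were tested over both stages and 16 were called in each genotype.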
